A study of Mus musculus with 11 samples.

Results

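The cells were primed OT1 cells, CD8 T cells from mice that carry a transgenic receptor for a peptide of ovalbumin, stimulated for 2 h with beads that carry antibodies against CD3 and CD28 and then treated with cycloheximide for 10 min to hold ribosomes on their mRNAs. The comparison set the 2 ribosome footprint libraries of these stimulated cells (replicates 2 and 3) against their 3 RNA libraries (replicates 1, 2 and 3), so it used 5 of the 11 libraries of the series and no unstimulated library. The question was how the footprints are spread over genes once the amount of each gene's RNA is taken into account. The labels call the RNA libraries total RNA and the footprint libraries ribosome protected RNA. They do not say whether replicates came from separate animals or cultures, so p-values rest on a spread between these samples that may be technical. The test fits that spread jointly over footprint and RNA libraries. The joint value (coefficient of variation 0.0686) was smaller than that of the 2 footprint libraries alone (0.292), so p-values do not measure the footprint spread by itself. Of the 21957 genes in the table, 1369 had enough footprints, observed or expected from their RNA, to be tested.

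A ribosome covers a short stretch of the mRNA that it is translating. When unprotected RNA is digested, these stretches can be sequenced as footprints, and their number over a coding sequence, set against the mRNA, gives the ribosome load of the gene. Messages differ in this load. Those for ribosomal proteins and elongation factors start with a cytosine followed by pyrimidines, the 5' terminal oligopyrimidine (TOP) motif, through which growth signals such as mTOR control their translation. A T cell that meets its antigen makes cytokines, nutrient transporters and transcription factors within hours.

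The stimulated footprint libraries held 20848 and 23641 counts over coding sequences, and the RNA libraries 21658263 to 28115983. The footprints therefore set the precision: a count of 0 allows up to 3 counts, or 144 and 127 CPM (counts scaled to library size), and these limits cover counting error only. Over the 1075 genes with at least 10 footprints, the 2 footprint libraries differed by more than counting error (chi-square 1.84 per degree of freedom), so they were kept as separate replicates. All 9 measured T cell markers were tested, among them Cd3d, Cd3e, Cd8a and Thy1, with 124 and 132 footprints in sum. The B cell markers were at 0 in both footprint libraries, and the myeloid, natural killer and erythroid lists had 1 footprint each. The dendritic list had 7 and 4 footprints, of which 6 came from Cd74 and 5 from Zbtb46. Zbtb46 overlaps Lime1, described below, so reads of this pair may not be fully separable. The part of such cells in the results was not tested. These are bulk libraries, in which fewer cells of a type and less RNA per cell cannot be told apart. Footprint and RNA libraries are different preparations, so ribosome load and a difference in how the preparations capture a gene cannot be told apart either.

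For each gene the RNA libraries give the number of footprints expected if footprints followed RNA, at library sizes scaled by TMM (trimmed mean of M-values, which sets the bulk of tested genes near a ratio of 1). A gene was tested if it had at least 10 footprints over both libraries, or if its plain share of the RNA counts predicted at least 10. By this rule 730 genes were admitted by their RNA, whatever their footprints, and 639 only by their footprints. Genes of the second kind had to be high in footprints. On the TMM scale the expected number is larger than the plain share, so the 730 genes start at 18.0 expected footprints and have a median log2 difference of -1.15, against -0.04 over all 1369. All genes of the table other than 4 that are very abundant in RNA (Gm10800, Gm10801, Gm20594 and Lars2) summed to 0.675 observed per expected footprint, 0.671 in replicate 2 and 0.679 in replicate 3. That value, and not 1, is the mark against which summed ratios of gene classes are read below.

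By edgeR's quasi-likelihood test, 254 of the 1369 genes had more footprints than their RNA share (18.6%) and 419 had fewer (30.6%), at an adjusted p of 0.05. The footprint libraries lay entirely above or below the RNA libraries in 249 of the 254 and in 419 of the 419 (999 of all genes tested, 73.0%). A difference of at least 2-fold was called in 211 genes on the high side and in 379 on the low side. The 10th and 90th percentiles of the log2 difference were -2.72 and 1.46, and 716 genes (52.3%) lay within 2-fold of expectation. Of the 254 higher genes, 211 were admitted only by footprints, 33.0% of such genes, and 43 were admitted by RNA, 5.89% of those. All 419 lower genes were admitted by RNA, 57.4% of those, and 0.00% of genes admitted only by footprints were lower. Counts of a class are read below against these shares. For a gene admitted only by its footprints, a higher call is partly set by the filter, so its call and any value of its test are a description. The split depends on where the zero is put: with library totals in place of TMM, 587 genes were higher and 197 lower, and the median of all genes moved to 0.84. A second fit, chosen after seeing the data, used the 730 RNA-admitted genes alone. It put the log2 differences of the 682 of them with footprints 0.83 higher and called 167 genes higher (22.9%) and 222 lower (30.4%). Below, a gene is said to pass in both fits when it had an adjusted p under 0.05 and the same direction in each. Its rank among the 730 genes, with 1 for the highest ratio, does not depend on the zero. A value after ± is a standard error (SE) taken from the test, which fits both kinds of library jointly. Such an SE can be smaller than the counting error of the footprints alone, and it can then understate the uncertainty. Leaving out footprint replicate 3 took the higher genes to 143 and the lower ones to 345, and calls named below that were lost without 1 library are given with the adjusted p without it.

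**Figure D1:**
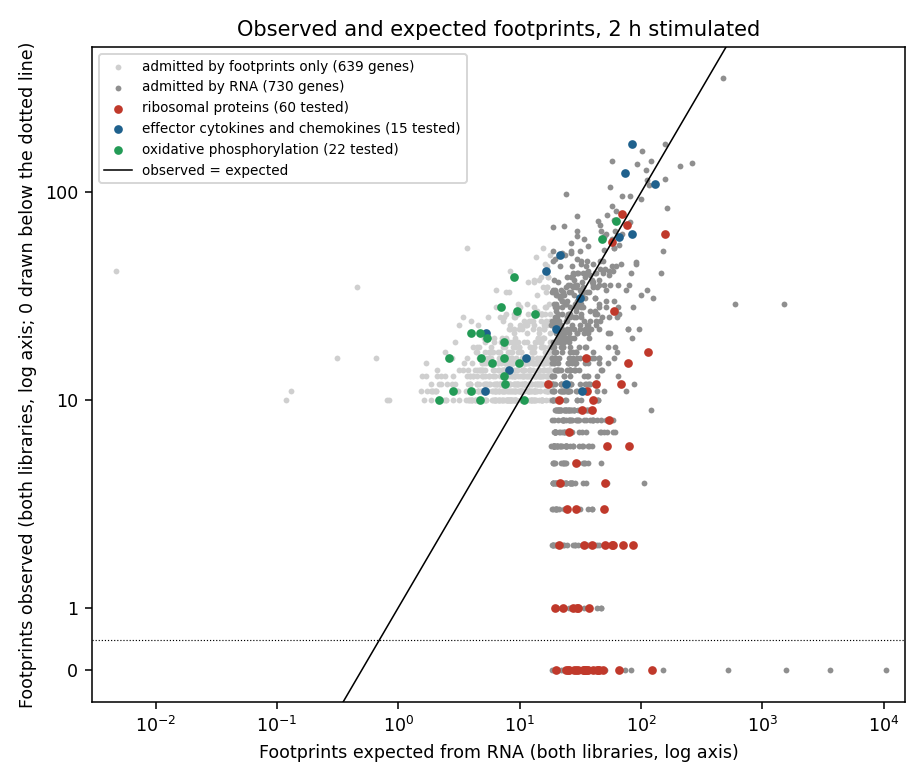
Each point is 1 of the 1369 genes tested, with its footprints expected from RNA on the x axis and its footprints observed on the y axis, both summed over 2 libraries on log axes. Ribosomal protein genes lie mostly far under the line of equality and 20 of them lie at 0, cytokine genes lie along it, and oxidative phosphorylation genes lie mostly above it; the empty lower left corner is set by the filter.

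The tie between footprints and RNA was loose. Over the 1075 genes with at least 10 footprints, Pearson's r between log2 footprints and log2 RNA was 0.55, a description across genes whose lower limit is set by the filter. The 2 footprint libraries, which share their RNA reference, had an r of 0.72 in log2 observed over expected across 1231 genes with footprints in both. Within the RNA-admitted genes, RNA level itself did not order the ratios, and genes with less RNA were not binned. In 5 bins of 146 RNA-admitted genes each, from 18.0 to 20.8 expected footprints in the lowest bin to between 44.9 and 10370 in the highest, the median log2 differences were -1.04, -1.17, -0.996, -1.49 and -1.15.

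Gene classes covered a wide range. Summed over every measured member, cytosolic ribosomal proteins had 0.17 observed per expected footprint, elongation factors and other TOP mRNAs 0.351, heat shock proteins and cytosolic chaperones 0.485, translation initiation factors 0.544 and glycolysis 0.558. Near the all-gene value of 0.675 lay S phase genes (0.682), ribosome biogenesis (0.697), the ATF4 and integrated stress response list (0.726) and actin cytoskeleton (0.779). Effector cytokines and chemokines stood at 1.19, mitochondrial ribosomal proteins at 1.24, oxidative phosphorylation at 1.44 and the proteasome at 1.45. The libraries gave close values for most classes. They differed most for polyamine synthesis, with 0.62 in replicate 2 and 0.269 in replicate 3, a list of 11 genes with 39 and 19 footprints.

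**Figure D2:**
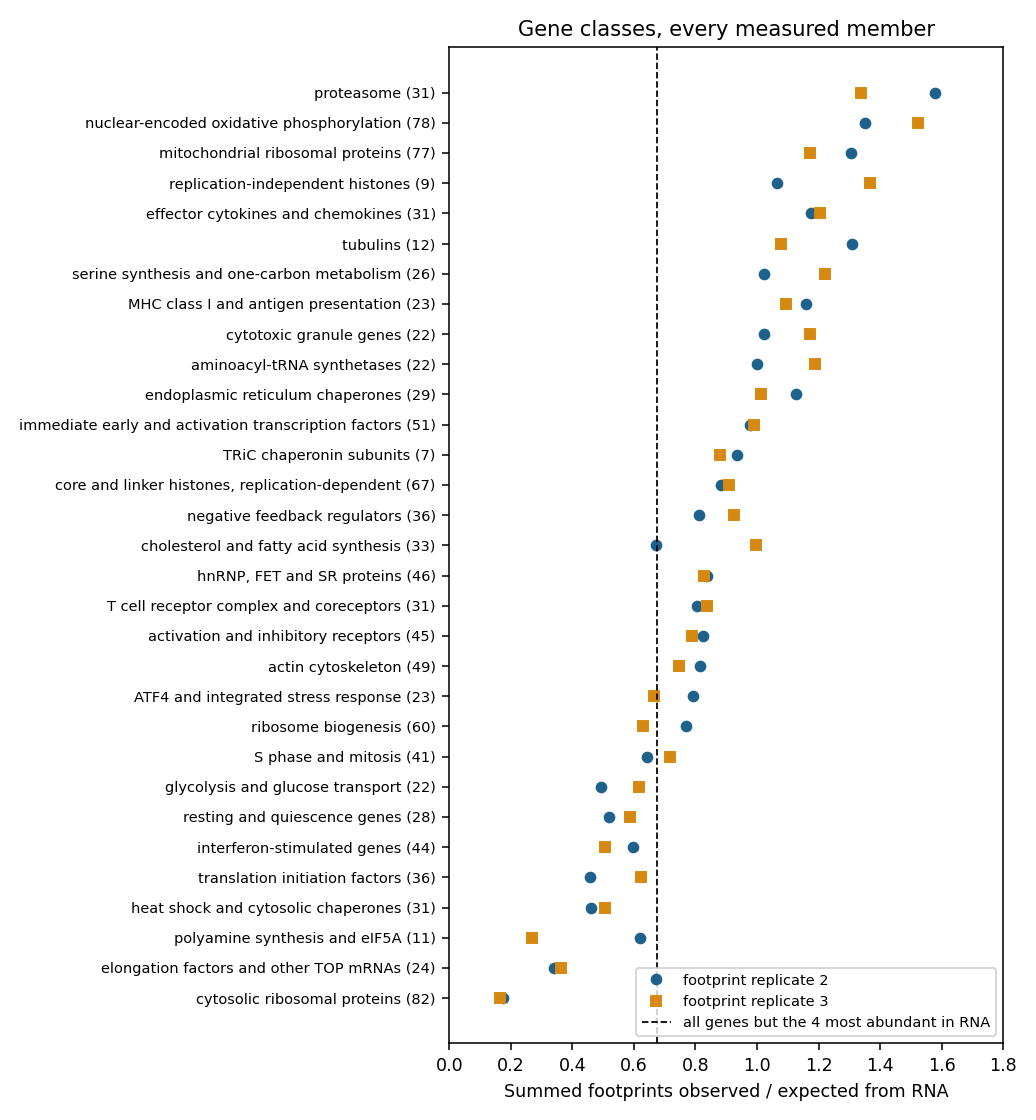
Summed observed over expected footprints for each gene class (number of measured members in brackets), with replicate 2 as circles and replicate 3 as squares; the dashed line marks all genes but the 4 most abundant in RNA. Ribosomal proteins stand lowest at 0.175 and 0.166; the proteasome stands highest in replicate 2 (1.58) and oxidative phosphorylation in replicate 3 (1.52).

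Ribosomal proteins were the lowest class with tested members. The 82 genes had 250 and 265 footprints where their RNA gave 3027 in all. Of the 60 tested, 56 had fewer footprints than their RNA share, 0 had more and 4 did not pass (background 57.4% lower among RNA-admitted genes), with a median log2 difference of -3.36 (genes at 0 set to their bound). In the fit of RNA-admitted genes 50 of 59 were lower and 3 higher. The large subunit (49 genes) and the small subunit (33 genes) had ratios of 0.156 and 0.188. Members were far from uniform. Of the 60, 37 had a ratio under 0.1 and 20 had no footprint in either library, while a few, among them Rps21, Rps3 and Rpl8, lay at or above the all-gene value.

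The start sites of 4 ribosomal protein genes with very different footprints are shown. Each begins with a pyrimidine run, of 9 bases in Rps6 and Rps18 and of 5 in Rplp2 and Rps21. The 4 were picked after their values were seen, so their run lengths do not stand for those of other genes. Sequences are from RefSeq (GRCm38.p6), 30 bases each, with 10 before and 20 from the annotated start, 5' to 3' on the gene's strand, and capitals mark the pyrimidine run that begins at the start.
Rps6 (chr4:86857348-86857377, minus strand): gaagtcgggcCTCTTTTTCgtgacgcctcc
Rps18 (chr17:33955646-33955675, minus strand): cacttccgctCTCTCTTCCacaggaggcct
Rplp2 (chr7:141447641-141447670, plus strand): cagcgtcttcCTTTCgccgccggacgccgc
Rps21 (chr2:180257369-180257398, plus strand): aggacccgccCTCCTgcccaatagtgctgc

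A run was counted when the first annotated base was C and at least 5 bases in all, that base included, were C or T, on the gene's strand only. It was present at 14 of the 61 ribosomal protein genes with a RefSeq start (22.95%), at 37 of 1081 tested genes (3.42%) and at 813 of 27025 genes in the whole promoter table (3.01%). A match is a description of these letters, and a gene without one may have a different true start. Of the 4 genes shown, Rps6, a protein of the small subunit, had 0 and 0 footprints against RNA counts of 7169, 9465 and 11854, at least 10.0-fold lower than expected (adjusted p = 0.000257). Rps18 was also at 0 in both, against 43.2 expected, at least 14.4-fold lower. Rplp2, of the ribosomal stalk, had 6 and 5 footprints against 35.6 expected; it was lower in the fit of all genes and did not pass in that of RNA-admitted genes (adjusted p = 0.166). Rps21 had 7 and 5 against 17.2, a log2 difference of -0.52 ± 0.51 (SE) that did not pass (adjusted p = 0.437), and was admitted only by its footprints. The 14 genes with such a start thus spanned from no footprint to a ratio of 0.696, and most of them lay at or under 0.0562. Low ratios were not particular to them. In the whole class, 34 of 82 members had no footprint, and 37 of the 60 tested had a ratio under 0.1. Rps6 and Rps18 also have 4 and 6 named pseudogenes, and Rplp2 and Rps21 have 1 and 0. Elsewhere among the 14, runs of 13, 11, 7 and 6 bases were found at ratios of 0.0562, 0.294, 0.0266 and 0.275. The part of run length or pseudogenes in these ratios was not tested.

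The most abundant ribosomal protein message without footprints was Rpsa (chr9:120127766-120132369), a small subunit protein also known as the laminin receptor. It had 28485, 39759 and 49744 RNA counts and 0 and 0 footprints, at least 41.4-fold lower than expected (adjusted p = 3.95e-05). At the other end, Rpl8 (chr15:76904071-76906318) of the large subunit had 40 and 39 footprints against RNA counts of 16010, 22309 and 27750. That is a log2 difference of 0.18 ± 0.15 (adjusted p = 0.398), and 1.01 in the fit of RNA-admitted genes (adjusted p = 0.00137). Rps3 had 22 and 48 footprints against 76.4 expected. Without replicate 3 of the footprints Rps3 was lower, at -0.71 (adjusted p = 0.0381). Rpl4 had the most RNA of the class and lay between these, with 32 and 31 footprints against 157 expected, a log2 difference of -1.31 ± 0.15 (adjusted p = 0.000246).

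One property of the genes moved with this spread. Many ribosomal protein genes have processed pseudogenes, copies of the mRNA elsewhere in the genome, to which a short footprint read may also align. For the 64 members with at least 1 pseudogene that RefSeq names after them, the summed ratio was 0.0765 (0.075 in replicate 2 and 0.0778 in replicate 3). For the 18 members with none it was 0.447 (0.471 and 0.425), also under the all-gene value. Rpl8, Rps3 and Rps21 had none, and Rpsa had 12. Here and below, only pseudogenes whose symbol is the gene's own followed by ps were counted. A gene with none named may therefore still have copies under other names. Outside the class, 33 RNA-admitted genes with a named pseudogene summed to 0.399 and 634 without to 0.626. The first sum rests much on 1 gene. Eef1a1, described below, gave 594 of its 2261 expected footprints but 29 of its 903 observed ones. How the counting treated reads with several alignments is not given in the sources used here, so values of genes with near-identical copies are uncertain. The part of such reads in the low ratios was not tested.

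**Figure D3:**
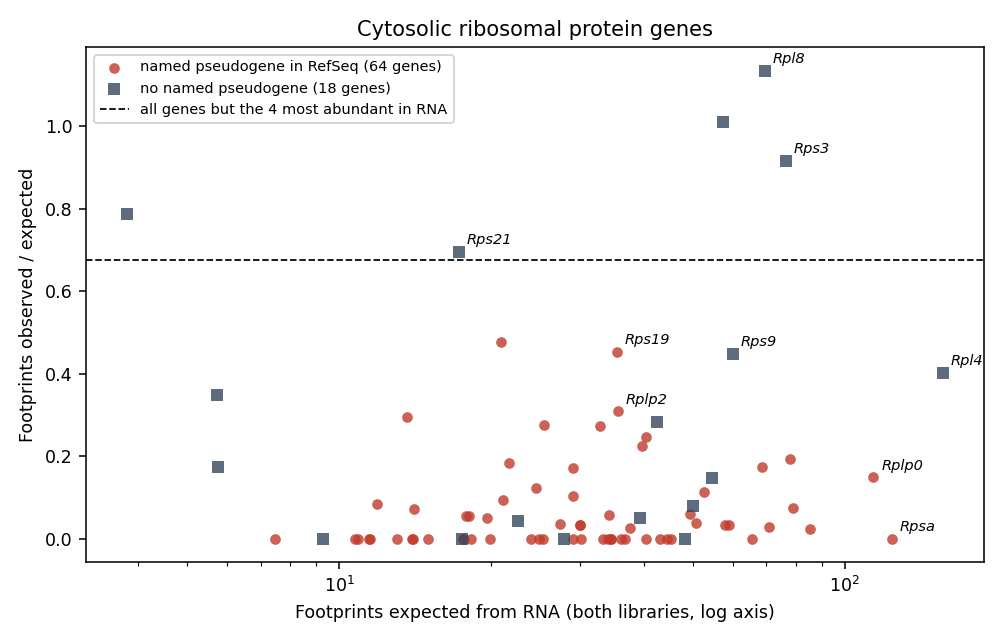
Each point is 1 of the 82 ribosomal protein genes, with footprints expected from RNA on the x axis (log axis) and observed over expected footprints on the y axis; circles have a pseudogene named after them in RefSeq and squares do not. The genes above the dashed line of all genes, among them Rpl8, Rps3, Rps21 and the thinly covered Rpl36al, are squares.

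Elongation factors and other TOP mRNAs were low as a class but mixed within it. The 24 genes summed to a ratio of 0.351 (0.34 and 0.361), and of 19 tested 12 were lower, 1 was higher and 6 did not pass. The 12 were 75.0% of the 16 admitted by RNA, and the higher one was admitted only by footprints. Eef1a1 (chr9:78478453-78481724), which brings aminoacyl-tRNA to the ribosome, had 142350, 191784 and 225911 RNA counts but 14 and 15 footprints, against 594 expected. Its log2 difference was -4.36 ± 0.22 (adjusted p = 8.11e-06), and both footprint libraries lay under every RNA library. Eef1g, a subunit of the factor that recharges it, had 1 and 0 footprints against 47.0. Eef2, which moves the ribosome along the mRNA, had 58 and 76 against 211, a log2 difference of -0.66 ± 0.15 (adjusted p = 0.00601) that turned to 0.17 in the fit of RNA-admitted genes (adjusted p = 0.33). The nucleolar chaperone Npm1 had 2 and 2 footprints against 107 expected, a log2 difference of -4.74 ± 0.30, lower in both fits. That SE is smaller than the counting error of so few footprints. Tpt1 (also called TCTP) and Hnrnpa1 had none, at least 16.9-fold and at least 8.31-fold lower. Eef1a1 has 2 named pseudogenes, Eef2 has 1, Tpt1 has 7, and Npm1, Eef1g and Hnrnpa1 have none named.

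Initiation factors divided as well. Over 36 members the ratio was 0.544 (0.456 and 0.623), with 3 of 16 tested higher, 6 lower and 7 not passed. The 6 lower genes were 54.5% of the 11 admitted by RNA, near the 57.4% of all such genes. Eif4a1, the helicase that unwinds the start of the mRNA, had no footprint in either library against 19730, 27012 and 30451 RNA counts, at least 27.3-fold lower than expected (adjusted p = 6.25e-05). Its paralog Eif4a2 had 0 and 3 against 39.2. Eif5, which acts when the start codon is found, had 3 and 4 against 52.6, a log2 difference of -2.91 ± 0.27. Eif2s1, the subunit of eIF2 that is phosphorylated under stress, had none, at least 7.37-fold lower. These 4 genes passed in both fits, and none has a named pseudogene in RefSeq. The scaffold Eif4g1, with 10 and 26 against 40.5, did not pass in either fit. Of the eIF3 complex, Eif3a had 15 and 23 against 44.8, Eif3c 16 and 25 against 42.7 and Eif3d 12 and 18 against 22.2; none passed in the fit of all genes, and all were higher in that of RNA-admitted genes (adjusted p = 0.0408, 0.0158 and 0.0048). The 3 higher genes, Eif2b4 (7 and 4 against 1.89), Eif3b (10 and 18 against 13.0) and Eif3i (13 and 10 against 13.1), were admitted only by their footprints. The call of Eif3b was lost without footprint replicate 3 (adjusted p = 0.269), that of Eif2b4 without replicate 2 (0.114), and that of Eif3i without replicate 2 (0.394) or RNA replicate 1, 2 or 3 (0.0664, 0.0751 and 0.0725).

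Heat shock proteins and cytosolic chaperones stood under the all-gene value, and the endoplasmic reticulum list stood above it. The first list of 31, which also holds mitochondrial chaperones such as Hspd1 and Hspa9, had a ratio of 0.485. In it, 6 of 13 tested were lower and 0 higher. The 6 were 75.0% of the 8 admitted by RNA, against 57.4% of all such genes. Hspa8, the constitutive Hsp70, had 2 and 7 footprints against 122 expected, Hsp90aa1 had 0 and 2 against 41.7, Hspd1 had 0 and 1 against 25.7 and the prolyl isomerase Ppia had 0 and 1 against 36.7. All of these were lower in both fits. Hsp90ab1, the constitutive Hsp90, had many more footprints, 59 and 57 against 157, and its log2 difference of -0.43 ± 0.13 turned to 0.40 in the fit of RNA-admitted genes (adjusted p = 0.0216). The TRiC chaperonin, which folds actin and tubulin, summed to 0.907 over its 7 subunits, of which Cct3 alone passed, with 3 and 6 against 25.6, and it did not in the fit of RNA-admitted genes (adjusted p = 0.178). The endoplasmic reticulum list of 29 genes summed to 1.07 (1.13 and 1.01), with 2 of 14 tested higher and 0 lower. The 2 were Manf, with 9 and 5 footprints against 5.14, and Ssr4, with 7 and 6 against 5.17. They were 2 of the 10 members admitted only by footprints, a smaller share than the 33.0% of all such genes. Hspd1 has 5 named pseudogenes, and Hspa8, Hsp90aa1, Hsp90ab1 and Ppia none. Without footprint replicate 2 the calls of Cct3 (adjusted p = 0.0501), Manf (0.326) and Ssr4 (0.164) were lost. That of Hsp90ab1 was lost without footprint replicate 3 (adjusted p = 0.141) and without RNA replicate 1, 2 or 3 (0.0658, 0.12 and 0.0508).

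Effector cytokines and chemokines, taken as a sum, had more footprints per RNA than the sum of all genes. The 31 genes had 365 and 420 footprints against 659 expected, a ratio of 1.19 (1.17 and 1.21), and the class median over the 15 tested was 0.52. Of these, 5 were higher, 3 of them among the 10 admitted by RNA, 1 was lower and 9 did not pass; in the fit of RNA-admitted genes 6 of 10 were higher and 0 lower. Ccl4 (chr11:83648624-83664683), a chemokine that attracts other immune cells, had 86 footprints in each library against RNA counts of 19658, 27900 and 32364. It was 1.03 ± 0.11 higher on the log2 scale than expected (adjusted p = 0.000246), and ranked 16 of the 730 genes. Its annotated span overlaps that of Ccl3, so reads of the pair may not be fully separable. Xcl1 (chr1:164931644-164935522), a chemokine for cross-presenting dendritic cells, had 54 and 70 footprints against 73.2 expected, a log2 difference of 0.76 ± 0.12 (adjusted p = 0.00125). The footprint libraries of both chemokines lay above every RNA library.

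Interleukin 2, the T cell growth factor (Il2, chr3:37120713-37125954), had 13 and 29 footprints against RNA counts of 3826, 5674 and 6060, which set 16.5. The log2 difference was 1.35 ± 0.30, with replicate 3 the higher of the 2 libraries, and the gene was admitted only by its footprints. Ltb, a member of the tumour necrosis factor family, had 16 and 34 against 21.5, a difference of 1.21 ± 0.25. Interferon gamma (Ifng, chr10:118441046-118445894), which activates macrophages and antigen presentation, had the most RNA of the class. Its 62 and 48 footprints against 130 expected gave a log2 difference of -0.24 ± 0.17 (adjusted p = 0.282), and its footprint and RNA libraries overlapped. Tnf had 22 and 41 against 85.1 (-0.44 ± 0.21, adjusted p = 0.113) and Ccl3 25 and 36 against 65.7 (-0.11 ± 0.19, adjusted p = 0.703). In the fit of RNA-admitted genes Ifng was at 0.59 (adjusted p = 0.0153), Ccl3 at 0.72 (adjusted p = 0.0153) and Tnf at 0.39 (adjusted p = 0.174). Csf2 had 14 and 2 footprints against 11.2, so its libraries fell on either side of expectation. Tnfsf8, the CD30 ligand, was the single lower member, with 9 and 2 against 32.8, and it did not pass in the fit of RNA-admitted genes (adjusted p = 0.19). Ccl5 had 4 and 0 footprints, Prf1 0 and 2, and neither was tested. Without footprint replicate 3, Il2 (adjusted p = 0.167), Ltb (0.175) and Tnfsf8 (0.147) lost their calls and Tnf was lower, at -0.87 (0.0341). Without replicate 2 Ifng was lower, at -0.52 (adjusted p = 0.0483).

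**Figure D4:**
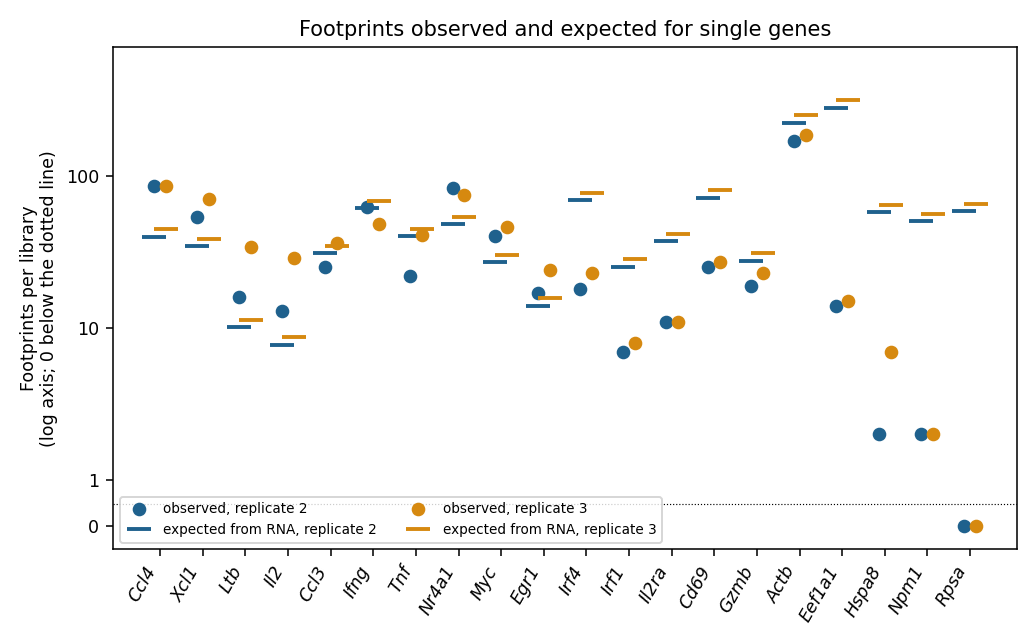
Footprints observed (points) and expected from RNA (bars) for 20 genes in replicates 2 and 3, on a log axis with 0 drawn below the dotted line. Points of Ccl4, Xcl1, Ltb, Il2, Nr4a1 and Myc lie above their bars in both libraries, and those of Irf4, Irf1, Il2ra, Cd69, Eef1a1, Hspa8, Npm1 and Rpsa lie far below.

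Transcription factors of early activation fell on both sides. The 51 genes summed to 0.984 (0.976 and 0.991), and 8 of 30 tested were higher, 6 lower and 16 not passed. Of the 21 admitted by RNA, 5 were higher and 6 lower (28.6%, against 57.4% of all such genes); in the fit of RNA-admitted genes 11 of 21 were higher and 2 lower. Nr4a1, an orphan receptor induced by antigen receptor signals, had 83 and 75 footprints against 22095, 35552 and 39087 RNA counts, a log2 difference of 0.64 ± 0.15 (adjusted p = 0.00895). Myc (chr15:61985341-61990361), a driver of growth, had 40 and 46 against 57.3, a difference of 0.59 ± 0.16 (adjusted p = 0.0137). Egr1 had 17 and 24 against 29.6 (0.47 ± 0.24, adjusted p = 0.135). Runx3, which holds the CD8 lineage, had 4 and 12 against 5.80 and was admitted only by its footprints. Of the 3 interferon regulatory factors tested, 2 were low and 1 was not. Irf4 (chr13:30749233-30766981), needed for effector expansion, had 33777, 49200 and 56112 RNA counts, the most RNA in the list, but 18 and 23 footprints against 147 expected. Its log2 difference was -1.84 ± 0.17 (adjusted p = 0.00015). Irf1 had 7 and 8 against 53.8, also -1.84, and both genes were lower in both fits. Irf8 had 28 and 46 against 59.4, a difference of 0.31 ± 0.19 that did not pass (adjusted p = 0.208) and was 1.14 in the fit of RNA-admitted genes (adjusted p = 0.00353). Nfkb1 had 10 and 16 against 65.5, a difference of -1.33 ± 0.20 that did not pass in the fit of RNA-admitted genes (adjusted p = 0.0978). The calls of Nr4a1 and Myc were lost without footprint replicate 2 (adjusted p = 0.0948 and 0.0533), that of Myc also without replicate 3 (0.0801), and that of Runx3 without replicate 3 (0.597).

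Negative regulators of the response were split as well, with a ratio of 0.871 over 36 genes and 4 higher, 4 lower and 9 not passed of 17 tested. The 4 lower genes were 33.3% of the 12 admitted by RNA. Both Rgs1 and Tnfaip3 were low in both fits. Rgs1, which damps signals of chemokine receptors, had 7 and 6 footprints against 65.1 (-2.32 ± 0.24), and Tnfaip3 (A20), an inhibitor of NF-kappaB, had 4 and 4 against 18.9 and 21.1 (-2.32 ± 0.28). Nfkbiz had 5 and 4 against 28.2 and passed in the fit of all genes only. Of the 4 higher genes, 2 were admitted by RNA, and in the fit of RNA-admitted genes 6 of 12 were higher and 3 lower. The other 2 were admitted only by footprints. Of these Zfp36l2, which promotes decay of AU-rich mRNAs, had 3 and 14 against 5.55. Without replicate 3 it did not pass (adjusted p = 0.89).

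Among surface proteins of the activated T cell, Cd69 and Il2ra were low, although their list as a sum was not. Cd69 (chr6:129267324-129275375), an early activation antigen that holds cells in tissue, had 36574, 49989 and 57462 RNA counts and 25 and 27 footprints against 153 expected. The log2 difference was -1.56 ± 0.15 (adjusted p = 0.000174). Il2ra, the alpha chain of the interleukin 2 receptor, had 11 and 11 against 78.8, a log2 difference of -1.84 ± 0.19 (adjusted p = 0.000192). Both were lower in both fits, at ranks 435 and 490 of 730. The beta chain Il2rb had 19 and 17 against 49.8 (-0.47 ± 0.18, adjusted p = 0.073). In the whole list of 45 activation and inhibitory receptors the ratio was 0.806, and 6 of 27 tested were higher, 4 lower and 17 not passed. The 4 lower genes were 28.6% of the 14 admitted by RNA, against 57.4% of all such genes. Of the 6 higher ones, 4 were admitted only by footprints. The higher ones included Lag3, an inhibitory receptor, with 5 and 14 footprints against 2.95, and the sphingosine 1-phosphate receptor S1pr4, with 2 and 10 against 1.87; both were admitted only by their footprints. The activating receptor Klrk1 (NKG2D) had 3 and 0 against 19.8. Lag3 and S1pr4 did not pass without footprint replicate 3 (adjusted p = 0.0515 and 0.439).

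The receptor complex and its coreceptors summed to 0.822 over 31 genes, with 5 higher, 4 lower and 13 not passed of 22 tested; the 4 were 28.6% of the 14 admitted by RNA. Cd8a had 11 and 14 footprints against 47.6, a log2 difference of -0.93 ± 0.20 (adjusted p = 0.00557). Ptprc (CD45), a phosphatase that sets the receptor's threshold, had 61 and 77 against 263, also -0.93. In the fit of RNA-admitted genes both were at -0.10 and did not pass (adjusted p = 0.763 and 0.544). The kinase Fyn had 4 and 2 against 20.2 and also did not pass there (adjusted p = 0.128). Higher members were Cd3e of the CD3 complex with 14 and 11 against 9.02, the glycoproteins Thy1 with 31 and 39 against 46.2 and Cd52 with 23 and 16 against 17.2, Cd2, and Ptprcap, described below. Of these Thy1 was admitted by RNA and was higher in both fits (0.60 ± 0.14, adjusted p = 0.00766); Cd3e, Cd52, Cd2 and Ptprcap were admitted only by their footprints. Without footprint replicate 3 Thy1 (adjusted p = 0.128), Fyn (0.0981) and Cd2 (0.241) lost their calls, and without replicate 2 Cd3e (0.0841), Cd52 (0.0849) and Cd2 (0.0544). That of Cd2 was also lost without RNA replicate 2 or 3 (0.0633 and 0.0655).

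Antigen presentation by MHC class I summed to 1.13 over 23 genes (1.16 and 1.09), and 7 of 20 tested were higher, 3 lower and 10 not passed. Of the 13 admitted by RNA, 3 were higher and 3 lower (23.1%). Its most abundant members did not pass in the fit of all genes. B2m had 83 and 88 footprints against 159 (0.11 ± 0.14, adjusted p = 0.564) and H2-K1 71 and 70 against 122 (0.22 ± 0.13, adjusted p = 0.208), and both were higher in the fit of RNA-admitted genes (adjusted p = 0.00119 and 0.000735). Class I heavy chains are similar in sequence, so their counts are uncertain. Pdia3, which assists peptide loading, had 24 and 25 against 13.6, a log2 difference of 1.85 ± 0.26. The immunoproteasome subunits Psmb9, with 6 and 14 against 7.11, and Psmb10, with 4 and 12 against 5.35, were also called higher, and like Pdia3 were admitted only by their footprints. Nlrc5, the transactivator of class I genes, had 0 and 7 against 45.7 and was lower in both fits. Cytotoxic granule genes summed to 1.10 over 22 members, with 4 of 7 tested higher and 0 lower. Granzyme B (Gzmb) had 19 and 23 against 58.7 (-0.48 ± 0.18, adjusted p = 0.0519), and Srgn, the proteoglycan that packs granules, had 36 and 42 against 52.6 (0.57 ± 0.17, adjusted p = 0.0209). Nkg7, Ctsw and Stxbp2 were the others on the high side, with 9 and 26, 13 and 13, and 4 and 10 footprints; all 3 were admitted only by these footprints, and Srgn by its RNA. Without footprint replicate 3 the calls of Psmb9 (adjusted p = 0.329), Psmb10 (0.626), Nkg7 (0.809), Stxbp2 (0.421) and Srgn (0.114) were lost, the last also without replicate 2 (0.0725). The call of Ctsw was lost without any 1 of the 5 libraries (adjusted p from 0.0537 to 0.187).

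Of the classes with tested members, the proteasome and oxidative phosphorylation had the most footprints per RNA in sum. The 31 proteasome genes had 201 and 191 footprints against 270 expected, a ratio of 1.45 (1.58 and 1.34). Of 19 tested, 10 were higher, 0 lower and 9 not passed, but all 19 were admitted only by their footprints, where 33.0% of all genes were higher and 0.00% lower, so the sum over all members is the better measure. By part of the complex the ratios were 1.07 for the 7 alpha subunits, 1.76 for the 7 beta subunits that hold the active sites, 1.49 for the 6 ATPases of the regulatory particle and 1.52 for its 11 other subunits. The ubiquitin receptor Psmd4 had 21 and 12 footprints against RNA counts of 1910, 2666 and 3192, a log2 difference of 2.01 ± 0.33. The beta subunit Psmb4 had 18 and 19 against 11.7, the ATPase Psmc2 8 and 12 against 6.18 and the lid subunit Psmd7 6 and 8 against 4.25. Without footprint replicate 3 Psmd7 (adjusted p = 0.0761) and Psmb4 (0.0797) did not pass, nor did Psmb4 without replicate 2 (0.0816).

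The 78 nuclear-encoded genes of oxidative phosphorylation had 313 and 395 footprints against 491 expected, a ratio of 1.44 (1.35 and 1.52), and 13 of 22 tested were higher, 0 lower and 9 not passed. Of the tested genes, 2 were admitted by RNA and passed only in the fit of such genes, where both were higher. The 13 higher ones were 65.0% of the 20 admitted only by footprints, against 33.0% of all such genes. Complex I stood at 1.84 (37 genes), complex II at 1.39 (4 genes), complex III at 1.71 (9 genes), and complex IV and ATP synthase at 1.25 each (11 and 15 genes). Each of these sums exceeded the all-gene value in both libraries. Ndufb6 of complex I had 10 and 6 footprints against 2.61, a log2 difference of 2.61 ± 0.50. Ndufa13 had 6 and 15 against 4.74, and cytochrome c1 (Cyc1) of complex III 5 and 16 against 3.99. Mitochondrial ribosomal proteins summed to 1.24 over 77 genes (1.30 and 1.17), with 1.32 for the large and 1.08 for the small subunit. Just 4 of them, including Mrpl52 (3 and 8 footprints against 1.53) and Mrpl20 (5 and 11 against 3.71), had enough footprints to be tested, and none was admitted by RNA, so the depth supports the sum and few of its members. The calls of Cyc1 (adjusted p = 0.18), Ndufa13 (0.0892), Mrpl52 (0.112) and Mrpl20 (0.126) were lost without footprint replicate 3, and that of Ndufb6 (0.0594) without replicate 2.

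Amino acid supply was also above the all-gene value. The transporter Slc7a5 (chr8:121881146-121907686), which brings in large neutral amino acids, had 37 and 32 footprints against RNA counts of 5548, 7772 and 8697. It was 1.56 ± 0.18 above its RNA share on the log2 scale (adjusted p = 0.000258) and ranked 3 of 730. Its partner chain Slc3a2 had 27 and 33 against 34.1 (0.82 ± 0.17, adjusted p = 0.00445), and Psat1 of serine synthesis 17 and 15 against 19.8 (0.69 ± 0.22, adjusted p = 0.0283). The list of serine synthesis, folate metabolism and transport summed to 1.13 over 26 genes, with 4 of 12 tested higher and 0 lower; the 4th was Atic, of purine synthesis, admitted only by its footprints. Aminoacyl-tRNA synthetases summed to 1.10 over 22 genes, with 3 of 15 tested higher and 1 lower. Vars had 14 and 34 against 19.5, Sars 19 and 25 against 21.5 and Mars, admitted only by its footprints, 10 and 17 against 13.9. Iars was the low one, with 3 and 3 against 20.5, and did not pass in the fit of RNA-admitted genes (adjusted p = 0.114). Without footprint replicate 3 Vars (adjusted p = 0.249) and Mars (0.339) did not pass, without replicate 2 Atic (0.221) did not, and Psat1 failed without any 1 of the 5 libraries (0.0538 to 0.295).

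Atf4, the transcription factor that drives many of these genes and whose mRNA is known for upstream open reading frames, had 3 and 0 footprints against 8792, 11765 and 14159 RNA counts. Its log2 difference was -3.62 ± 0.51 (adjusted p = 0.000661), lower in both fits. Its target Trib3 had 5 and 6 footprints against 3.13 and was called higher, admitted only by its footprints, a call lost without footprint replicate 2 or 3 (0.0594 and 0.0914). Ornithine decarboxylase (Odc1), the entry enzyme of polyamine synthesis, had 0 and 2 footprints against 43.7, and Azin1, which protects it from degradation, 0 and 1 against 20.2; both were lower in both fits. Glycolysis had a ratio of 0.558 over 22 genes, with 1 of 8 tested higher and 4 lower; the 4 were 66.7% of the 6 admitted by RNA. Gpi1 had 2 and 2 footprints against 22.3 and Pkm 3 and 13 against 28.3 and 31.7, both lower in both fits. Ldha (9 and 12 against 53.2) and Gapdh (2 and 5 against 23.04) passed in the fit of all genes only, and each has 3 named pseudogenes.

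Cytoskeletal messages showed how far members of a family can lie apart. Over 49 actin cytoskeleton genes the ratio was 0.779, and 4 of 36 tested were higher and 13 lower, 46.4% of the 28 admitted by RNA; in the fit of RNA-admitted genes this became 11 higher and 4 lower of 28. Actb, cytoplasmic beta actin, had the most footprints of any gene, 170 and 185, against 474 expected, a log2 difference of -0.42 ± 0.15 (adjusted p = 0.0495) and 0.41 in the fit of RNA-admitted genes (adjusted p = 0.0359). Actg1, cytoplasmic gamma actin, whose coding sequence is very similar, had 3 and 1 footprints against 52.1, a log2 difference of -3.70 ± 0.37. Reads shared by the pair may be assigned to either or to neither, so each value is uncertain. Coro1a (chr7:126699774-126704816), an actin regulator needed for T cell survival, had 64 and 77 footprints against 12422, 18478 and 24300 RNA counts, a log2 difference of 1.29 ± 0.16 (adjusted p = 0.000431) and rank 8. The thymosin Tmsb4x had 20 and 16 against 79.3 (-1.14 ± 0.19) and did not pass in the fit of RNA-admitted genes (adjusted p = 0.243), and Tmsb10 none against 40.8, at least 13.6-fold lower. Cdc42, a small GTPase of cell polarity, had 2 and 0 against 34.2. Ezr, which links actin to the membrane, had 8 and 3 against 24.8 (-1.17 ± 0.37, adjusted p = 0.0275) and did not pass in the fit of RNA-admitted genes. The call of Ezr was lost without footprint replicate 3 (adjusted p = 0.377), and that of Actb without footprint replicate 2 or 3 (0.0722 and 0.0972) or RNA replicate 1 or 2 (0.124 and 0.212).

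Histones, whose replication-dependent mRNAs lack a poly(A) tail, summed to 0.897 over 67 genes, with 3 of 29 tested higher and 6 lower, 28.6% of the 21 admitted by RNA. By type, H2A stood at 1.42 and H4 at 1.08, H3 at 0.614 and H2B at 0.481, and the linker H1 at 1.07. Hist1h2bn had 2 and 2 footprints against 27.1 and Hist1h3b 1 and 0 against 19.4. Copies within a type are nearly identical, so values of single genes are uncertain. The sums by type rest partly on a few members. Hist3h2a, described below, gave 35 of the 133 H2A footprints, and H2A without it stood at 1.05. Hist2h4, with 24 and 44 against 18.9, and Hist4h4, admitted only by its 23 and 31 footprints, gave many of the 269 of H4, which without them stood at 0.685. These members were left out after their values were seen. The variant H2afx (chr9:44334715-44336077), which marks DNA breaks when phosphorylated, ranked 1 of the 730 genes. It had 38 and 60 footprints against 5645, 7171 and 10319 RNA counts, a log2 difference of 2.01 ± 0.22 (adjusted p = 0.000245). H3f3b, a replacement histone, had 5 and 5 against 43.8 and was lower in both fits.

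RNA-binding proteins of splicing summed to 0.833 over 46 genes, with 9 of 36 tested higher, 16 lower and 11 not passed. The 16 were 57.1% of the 28 admitted by RNA, near the 57.4% of all such genes, and 6 of the 9 higher genes were admitted only by footprints. Srsf3 had no footprint against 29.9 expected, at least 9.95-fold lower, Hnrnpk had 1 and 6 against 50.0 and Nono 0 and 3 against 23.3; all were lower in both fits. Pcbp1, an intronless gene for a poly(C)-binding protein, had 18 and 36 against 3.72 and was admitted only by its footprints. Hnrnpl, with 24 and 27 against 22.3, and Hnrnpm, with 25 and 22 against 18.9, were admitted by RNA and higher in both fits. Genes of S phase and mitosis, at 0.682 in sum, had 5 of 19 tested higher and 7 lower. The 7 were 53.8% of the 13 admitted by RNA, again near 57.4%. Of the DNA helicase, Mcm4 had 15 and 19 against 19.7 and Mcm5 19 and 32 against 26.5, both higher in both fits, though neither passed without footprint replicate 3 (adjusted p = 0.161 and 0.175). On the low side Hmgb2 had none against 18.6, Ran 0 and 1 against 20.1 and Mki67 12 and 22 against 111. Genes kept from the resting state summed to 0.555 over 28 members, with 6 of 12 tested lower and 1 higher; the 6 were 85.7% of the 7 admitted by RNA, against 57.4% of all such genes, and 2 of the 7 were lower in the fit of RNA-admitted genes. Bcl2, which blocks cell death, had 4 and 2 against 36.6, and Btg1 4 and 6 against 43.9, while Klf2, a quiescence factor, had 6 and 4 against 1.63 and was admitted only by its footprints, a call lost without footprint replicate 2 or 3 (adjusted p = 0.233 and 0.0936).

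At the extremes stood genes with no footprints and genes with almost no RNA. Of the 730 RNA-admitted genes, 48 had no footprint in either library (6.58%), and 44 of them were called lower, with bounds from at least 6.22-fold to at least 3457-fold. Ribosomal protein genes made up 20 of the 48. A named pseudogene was present for 20 of the 48 (41.7%) and for 60 of the 682 genes with footprints (8.80%), but for 2 of the 28 genes at 0 that are not ribosomal protein genes. Gm10800 is a predicted gene with 3611765, 3782205 and 1641700 RNA counts, and Lars2 (chr9:123366927-123462675), the mitochondrial leucyl-tRNA synthetase, had 840160, 1333730 and 1201542. Both had 0 and 0 footprints, and so did the predicted genes Gm10801 and Gm21738. Leaving Gm10800, Gm10801, Gm20594 and Lars2 out of the scaling gave 253 higher and 419 lower genes. Ccdc107, with 30715, 44064 and 71471 RNA counts, and Rps6ka2, a kinase, with 14490, 23299 and 24307, also had none, at least 50.3-fold and at least 21.8-fold lower.

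On the other side was Ptprcap (chr19:4154646-4156710), a small protein bound to CD45. It had 18 and 24 footprints but 2, 1 and 1 RNA counts in libraries of over 21658263 counts, so its fitted log2 difference of 13.06 ± 0.58 rests on 4 RNA counts. All 10 of the highest genes were admitted only by their footprints. Tomm6, of the mitochondrial import pore, had 8 and 3 footprints against 29, 49 and 44 RNA counts, Hist3h2a had 15 and 20 against 108, 124 and 202, and Lime1, a signalling adaptor, had 13 and 3 against 80, 101 and 111. Of the 10 highest genes, 3 (Tomm6, Hist3h2a and Lime1) overlap another coding gene in RefSeq, as do 16.9% of the genes tested. Among the other genes named, Ccl3, Ccl4, B2m, Pdia3, Ctsw, Eif4a2, Hnrnpk, Hspd1, Mars, Ndufa13 and Zbtb46 overlap another as well. Whether overlapping genes were counted apart in both kinds of library is not given in the sources used here, and the part of this in their values was not tested. The transcription factor Cebpb, with a single exon, had 5 and 11 footprints against 150, 216 and 261 RNA counts, a log2 difference of 4.59 ± 0.56, and overlaps none.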

How the data were processed

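The authors deposited unnormalized read counts for the coding sequence of each gene; the aligner was STAR 2.5 and the build mm10 (GRCm38), per the submitters' processing notes. The counting tool, the handling of strands and any read filter are not given in the sources used here. The table's 241527 values equal those of the single-library files; a symbol was found for 21838 of 21957 genes, and 21252 matched a RefSeq gene.

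Footprints were tested against RNA in edgeR 4.0.16 (R 4.3.3; quasi-likelihood F test) on 5 libraries with TMM factors and Benjamini-Hochberg adjustment over 1369 genes (threshold 0.05, two-sided). The minimum was 10 footprints observed or expected. SE is the size of the log2 difference divided by the square root of F. It can lie under the counting error of the footprints, mostly where these are few, and is then too small. Genes at 0 footprints got a bound of the expected number over 3 counts, over both libraries. The script was tested on simulated data.

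Gene members and the 38 lists (1179 genes) were chosen with earlier results of these data known. Named genes are the 10 highest and 10 lowest with separate libraries, the 10 with most footprints, up to 4 passing members per list (or the 2 with most footprints) and a set of known genes; Rpl8, Rps3, Rps21, Rpl36al, Rpl4, Rps6, Rps18, Rplp2, Cd2, Cd3d, Gm20594, Irf8, Eif2b4, Eif3a, Eif3b, Eif3c, Eif3d, Eif3i, Eif4g1, Mcm4, Mcm5, Hist2h4, Hist4h4, Hnrnpl and Hnrnpm were named after their values were seen. Alternatives were DESeq2 1.42.0, limma 3.58.1 (voom), other scalings and filters, thinned RNA (seed 20), replicate number as a block and each library left out; TMM without 4 genes, RNA-admitted genes alone, genes at 0 left out, histone sums without 3 members and the footprint libraries' spread were added after seeing the data. Coding lengths were not used here, so levels are not compared between genes. Some items are not reported here.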

Additional observations from a re-analysis of the deposited data

How the results depend on the processing

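The number of genes above their RNA share was 254 and below it 419. Leaving out 1 library at a time gave 143 to 244 higher and 345 to 414 lower genes; where 1 footprint library was left, it was assumed to vary like the RNA libraries. DESeq2 (328 and 448), limma voom (288 and 361) and RLE scaling (247 and 434) stayed within 1.5 times of both counts. Library totals gave 587 and 197, no filter 252 and 1175 (of 7861 genes), a filter at 30 gave 51 and 69 (of 236), genes with 10 observed footprints 153 and 170 (of 1075), RNA thinned to footprint depth 94 and 260, an adjusted p of 0.01 gave 121 and 311, and RNA-admitted genes alone 167 and 222 (of 730). The stricter and one-sided filters test fewer genes; for the other shifts the cause was not tested.

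With the replicate number as a block, 158 genes were higher and 316 lower. The numbers are shared by 2 pairs only. Across genes, the difference between replicates 2 and 3 in footprints had a correlation of 0.012 with that in RNA. Footprint counts per gene are small, so this value cannot show whether the numbers pair the libraries.

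Among 143 named genes, direction changed as follows where the gene passed the threshold in either fit. Library totals gave Actb 0.47, Ccl3 0.78, Eef2 0.22, Hsp90ab1 0.46, Ifng 0.66, Rps3 0.75 and Eif3c 0.83, and RNA-admitted genes alone gave 0.41, 0.72, 0.17, 0.40, 0.59, 0.70 and 0.77, and Eif3a 0.59. Without a filter B2m was at -0.47 and Srgn at -0.0063. Genes that passed in neither fit changed sign too: 6 with library totals (among them Tnf at 0.45, Il2rb at 0.42 and Gzmb at 0.41), 4 with RNA-admitted genes alone (Tnf 0.39, Il2rb 0.36, Gzmb 0.35 and Eif4g1 0.66), 7 without a filter, 1 with the filter at 30, 3 with observed footprints alone, 4 with thinned RNA, and 5 and 2 without footprint replicate 2 and 3. The spread between the footprint libraries (biological coefficient of variation 0.292) exceeded that of the joint fit (0.0686). Using it for all libraries kept both counts within 1.5 times, with more higher and fewer lower genes. The quasi-likelihood test still fits a further spread to each gene, which can offset this change. This setting therefore cannot show whether the calls hold under the larger spread of the footprint libraries.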
